A study of Mus musculus with 6 samples.

Results

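Voltage-gated potassium channels open when the membrane depolarises and let potassium leave the cell, which ends action potentials, sets how fast a neuron can fire and limits excitability. A channel is built from pore-forming alpha subunits, whose families differ in speed and voltage range, together with cytoplasmic beta subunits, calcium-binding KChIP proteins and small KCNE membrane proteins that tune it. In the spinal cord, Kv1 channels lie along myelinated axons beside the nodes of Ranvier, Kv3 channels serve neurons that fire at high rates, Kv4 channels act in dendrites, and KCNQ channels carry the slow M-current.

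The genes of these channels were taken by name from a table of 37475 mouse genes (Kcna, Kcnb, Kcnc, Kcnd, Kcnf, Kcng, Kcnh, Kcnq, Kcns and Kcnv genes with their Kcnab, Kcnip and Kcne partners). Of 55 matching names, 51 had a mean count of 10 or more over 6 libraries and are described here. They comprise 48 channel subunits and 3 non-coding RNAs that the name pattern also takes (Kcnq1ot1, Kcnab3os and Kcnd3os). Counts of channel genes given below take in these RNAs, except where channel subunits are named. Kcna7, Kcna10, Kcne1 and Kcnv2 lay below the minimum. Kcnv2 lay just under it, with a mean count of 9.67, and Kcng3 just over it, with 12.0.

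The libraries were made from polyadenylated RNA of injured spinal cord. One group was contused wild-type mice given syringin, a plant phenylpropanoid glucoside, by intraperitoneal injection at 50 mg/kg a day for 3 days (n = 3 biological replicates). The other was contused wild-type mice given phosphate-buffered saline (PBS) on the same days (n = 3). All animals had the contusion at thoracic level T10 and were sampled on day 3, so both groups are injured, and uninjured cord was not analysed here. The labels give neither the age nor the strain of the mice.

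The total counts were 78843034, 65579117 and 70505235 in the syringin libraries and 74495190, 66771594 and 67580815 in the PBS libraries. The value 4 was 1.51 times as frequent as the mean of the values 3 and 5, so 1 fragment may stand for about 4 counts, and the counting error may be larger than these totals imply. Defining markers of spinal cord cells were present: the oligodendrocyte gene Mbp averaged 10840 and 10870 CPM (counts scaled for library size) in the syringin and PBS libraries, the astrocyte gene Gfap 4086 and 5003, and the neuronal gene Snap25 400.0 and 760.0. Transcripts of sensory neurons, whose cell bodies lie in the dorsal root ganglia beside the cord, varied between libraries. Scn10a, a sodium channel gene of these neurons, had 43.9, 0 and 12.0 CPM in the syringin libraries, and 45.4, 0.223 and 0 CPM in the PBS libraries. A value of 0 allows up to 3 counts, from counting error only, if 1 fragment is 1 count, and more if 1 fragment stands for about 4.

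In the syringin libraries 13 channel subunit genes fell relative to the PBS libraries, among them Kcna2, Kcnc1, Kcnd2, Kcnh2 and Kcnab3, while most channel genes did not pass the test. The quasi-likelihood test of edgeR, adjusted by the Benjamini-Hochberg method over all genes, could be run on 50 of the 51 genes. At an adjusted p under 0.05, 13 fell, none rose and 37 did not pass. Among all 22114 genes tested, 3.39% were called lower and 1.62% higher. The median log2 fold change (syringin over PBS) was -0.56 over the 50 genes and 0.01 over all genes tested. In 19 of the 50 genes all syringin values lay below all PBS values and in none above, against 15.3% and 14.7% of all genes tested. At an unadjusted p under 0.05, 19 of the 50 were lower and none higher, against 12.1% and 11.5% of all genes tested. Without PBS library 1, 6 channel genes were lower (0.954% of all genes in that fit), and without PBS library 2, 8 were (0.723%). Without syringin library 1, 17 channel genes were lower (4.97% of all genes), without syringin library 2, 8 were (1.42%), and without syringin library 3, 6 were (0.942%). Without PBS library 3 edgeR called none of the 13 and no gene at all, with 19 channel genes and 3449 genes in all at an unadjusted p under 0.05. In fits added after this was seen, limma-voom without that library also called none, and DESeq2 called 14 channel genes lower (5.47% of all genes with an adjusted p), 12 of them among the 13. Kcna2, Kcnc1, Kcnd2, Kcnh2 and Kcnab3 were called in 5 of these 6 edgeR fits, and Kcnc4, Kcnq3, Kcnab2, Kcng4, Kcng1 and Kcns3 in 0 to 2. Bulk tissue does not tell fewer cells of a type from less RNA per cell.

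**Figure D1:**
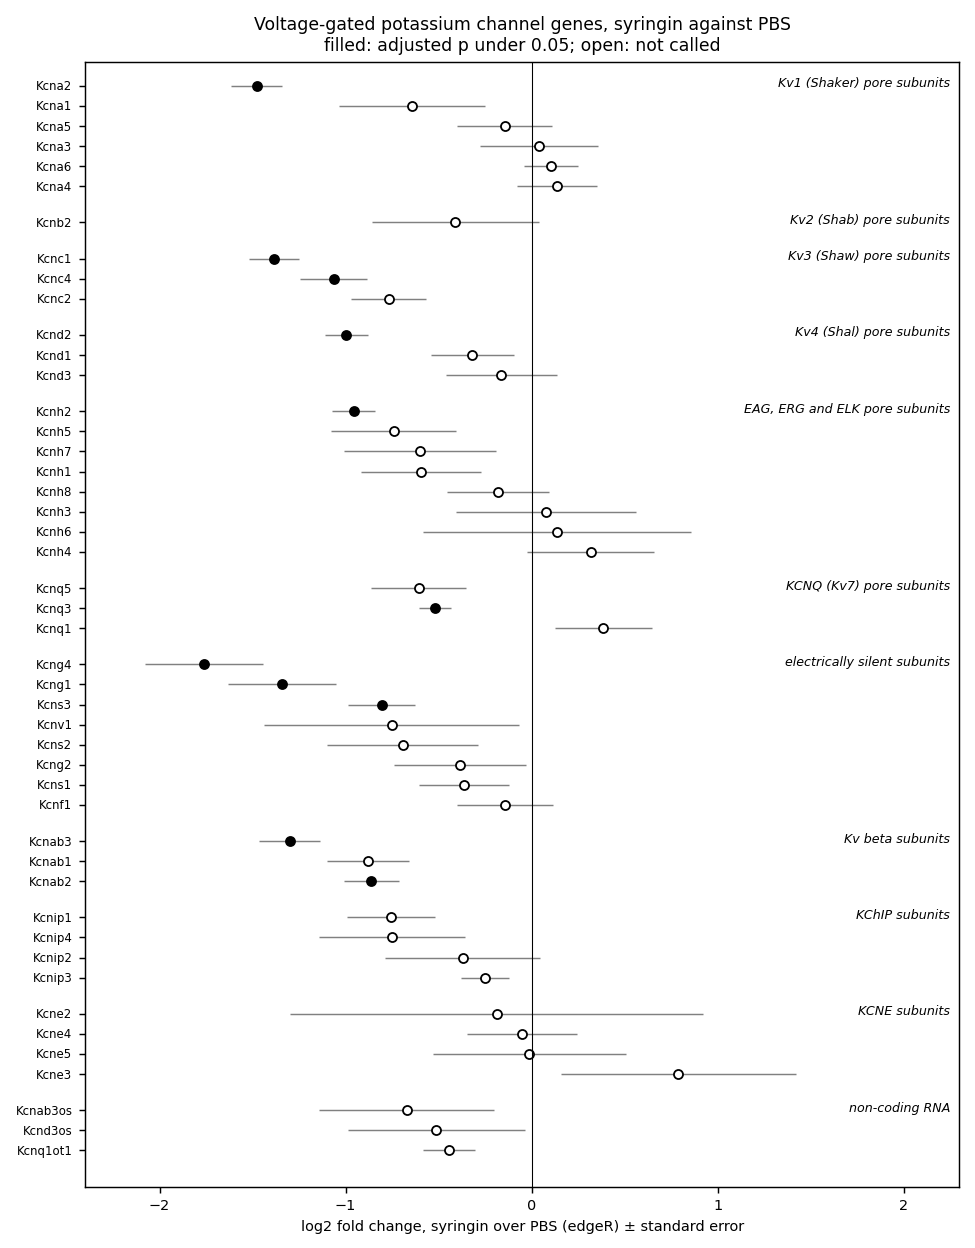
Log2 fold change of syringin over PBS with its standard error (x axis) for 46 of the channel genes tested, grouped by subfamily, each from 3 libraries a group. Filled points passed an adjusted p of 0.05: 11 genes, all on the negative side, from -0.52 (Kcnq3) to -1.76 (Kcng4).

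Per unit of transcript length, abundant members included the beta subunit Kcnab2 (23.2 FPKM, mean of 6 libraries), the Kv1 gene Kcna1 (13.4), the KChIP gene Kcnip3 (13.3), and the Kv1 genes Kcna6 (12.6) and Kcna2 (9.61). FPKM, fragment counts divided by transcript length and library size, are the authors' values. Kcna6 stood above Kcna2 in every syringin library but not in every PBS library. Kcna6 had 12.8, 13.8 and 12.3 FPKM and Kcna2 5.12, 5.54 and 4.39 FPKM in the syringin libraries. In the PBS libraries Kcna6 had 9.69, 12.4 and 14.6 FPKM and Kcna2 15.2, 11.8 and 15.6 FPKM.

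The promoters of 3 of the genes that fell and of 1 that did not are shown so that their sequences can be set side by side. RefSeq promoters (GRCm38.p6, 250 bases before to 50 bases after the start of a transcript) were found for 34 of the 51 genes, with 50 promoters in all. Capitals mark matches to GGGCGG on either strand, the GC box; TGACGTCA, CACGTG and TATAAA were marked too but occur in none of these 4. The first is Kcna2 (chr3:107101317-107101616, plus strand), the second Kcnc1 (chr7:46396218-46396517, plus strand), the third Kcnd2 (chr6:21215096-21215395, plus strand) and the last, for contrast, Kcna6 (chr6:126740625-126740924, minus strand).
Kcna2: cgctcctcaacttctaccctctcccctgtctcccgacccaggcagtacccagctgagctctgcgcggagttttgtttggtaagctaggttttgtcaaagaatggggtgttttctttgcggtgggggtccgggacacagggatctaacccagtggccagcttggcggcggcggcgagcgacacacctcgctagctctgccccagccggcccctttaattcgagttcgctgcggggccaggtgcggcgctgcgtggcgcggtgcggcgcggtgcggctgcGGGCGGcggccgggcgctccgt
Kcnc1: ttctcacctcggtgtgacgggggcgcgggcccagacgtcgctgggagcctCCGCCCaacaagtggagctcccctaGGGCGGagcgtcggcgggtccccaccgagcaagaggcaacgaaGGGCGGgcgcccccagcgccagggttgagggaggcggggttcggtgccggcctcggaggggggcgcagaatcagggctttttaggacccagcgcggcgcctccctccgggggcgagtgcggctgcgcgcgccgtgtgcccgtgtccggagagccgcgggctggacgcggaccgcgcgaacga
Kcnd2: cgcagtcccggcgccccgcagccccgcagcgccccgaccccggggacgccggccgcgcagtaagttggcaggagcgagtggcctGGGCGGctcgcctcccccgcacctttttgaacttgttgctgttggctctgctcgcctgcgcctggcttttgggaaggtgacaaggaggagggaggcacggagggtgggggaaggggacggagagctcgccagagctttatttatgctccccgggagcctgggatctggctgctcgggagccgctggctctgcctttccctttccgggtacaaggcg
Kcna6: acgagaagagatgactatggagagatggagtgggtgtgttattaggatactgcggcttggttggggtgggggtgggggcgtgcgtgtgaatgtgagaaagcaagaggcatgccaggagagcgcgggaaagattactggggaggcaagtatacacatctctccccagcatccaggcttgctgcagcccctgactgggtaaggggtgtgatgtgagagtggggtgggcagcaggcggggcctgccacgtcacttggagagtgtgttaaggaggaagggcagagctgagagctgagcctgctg
Kcnc1 held 3 GC boxes, Kcna2 and Kcnd2 1 each, and Kcna6 none. Their G and C content was 74.7%, 66.7%, 68.7% and 58.3%, against a median of 60.0% over the 50 promoters and 52.7% over all 32851 RefSeq promoters. A GC box was found in 26 of the 50 promoters and in 35.7% of all; TATAAA was found in 1 of the 50 and in 13.6% of all. Of the 8 fallen genes with a promoter, 7 held a GC box, as did 24 of the 34 genes matched. The fallen gene without a GC box was Kcng4. Among genes that did not fall, Kcnh7 held 4 and Kcna4 held 3, while Kcna5 and Kcna6 held none. A match is a description of the letters and does not show a bound factor.

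The Kv1 (Shaker) genes encode low-threshold channels of axons. Of 6 tested, 1 fell. Kcna2 (ENSMUSG00000040724; GRCm38 chromosome 3, 107101146 to 107115005), a main axonal subunit, had 65.0, 73.6 and 57.8 CPM in the syringin libraries, against 194, 152 and 200.2 CPM in the PBS libraries. Every syringin value lay below every PBS value, and the fold change was -1.48 ± 0.14 (standard error; edgeR adjusted p = 0.0101). Kcna1, which forms mixed channels with Kcna2, had 87.1, 45.8 and 29.4 CPM in the syringin libraries, against 109, 61.3 and 83.4 CPM in the PBS libraries. The Kcna1 groups overlapped, syringin library 1 standing above PBS libraries 2 and 3, and the fold change of -0.64 ± 0.39 did not pass (edgeR adjusted p = 0.377).

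Kcna6, a Kv1 subunit named here after its values were seen, had 80.9, 91.3 and 80.7 CPM in the syringin libraries, against 62.0, 79.8 and 93.4 CPM in the PBS libraries. These groups overlapped (0.10 ± 0.15, edgeR adjusted p = 0.727). Kcna1 and Kcna6 are neighbours on chromosome 6, with Kcna5, and Kcna2 and Kcna3 are neighbours on chromosome 3. The make-up of the Kv1 transcripts differed between the groups. Kcna2 made 13.2%, 17.5% and 17.3% of the summed Kv1 FPKM in the syringin libraries, against 30.3%, 29.9% and 31.3% in the PBS libraries. Kcna6 made 33.0%, 43.6% and 48.2% with syringin, against 19.3%, 31.4% and 29.3% with PBS. The FPKM ratio of Kcna6 to Kcna2 was 2.49, 2.48 and 2.79 in the syringin libraries, against 0.638, 1.05 and 0.935 in the PBS libraries. The pair was chosen for this contrast, so the ratio is a description with no test.

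The less abundant Kv1 genes did not pass. Kcna3, the channel of T cells and microglia, had 3.27, 3.19 and 1.76 CPM with syringin, against 2.69, 1.98 and 3.34 CPM with PBS (0.04 ± 0.32). T cell markers had positive fold changes in 8 of 8 genes, none called, with a summed level of 7.31 to 16.3 CPM in the syringin libraries and 3.43 to 10.1 CPM in the PBS libraries; Cd3g was at 0 in at least 1 library. Microglia markers had negative fold changes in 7 of 9 genes, none called (median -0.29). Their summed level was 941 to 1562 CPM in the syringin libraries and 1276 to 1496 CPM in the PBS libraries. Kcna4 and Kcna5 had fold changes of 0.14 ± 0.21 and -0.14 ± 0.26.

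**Figure D2:**
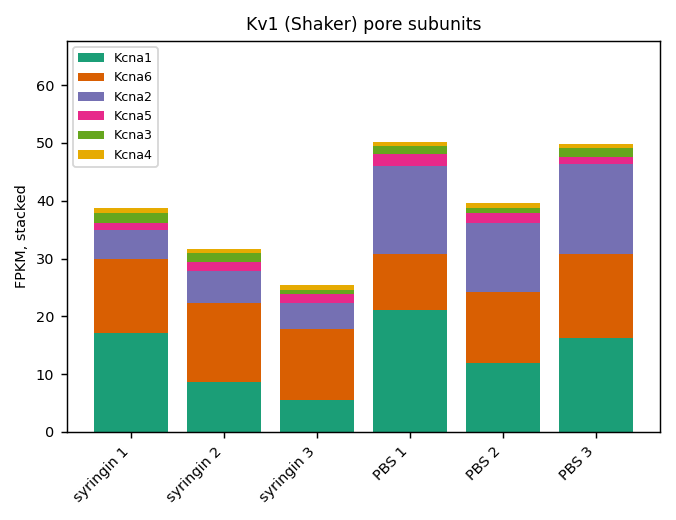
Stacked FPKM of the 6 Kv1 genes in each library, syringin libraries left of PBS libraries. The Kcna6 segment is of similar height in both groups while the Kcna2 segment is shorter in the syringin libraries, where it makes 13.2% to 17.5% of the total, against 29.9% to 31.3% in the PBS libraries.

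The Kv3 (Shaw) genes encode fast, high-threshold channels that let neurons fire rapidly. Kcnc1 and Kcnc4 fell. Kcnc1 (GRCm38 chromosome 7, 46396497 to 46438704) had 37.8, 29.5 and 35.3 CPM with syringin, against 87.4, 78.3 and 102 CPM with PBS (-1.38 ± 0.13, edgeR adjusted p = 0.0101). Kcnc4, whose channels inactivate, had 20.6, 14.3 and 20.5 CPM with syringin, against 35.1, 34.7 and 46.1 CPM with PBS (-1.06 ± 0.18, edgeR adjusted p = 0.0230). Kcnc2 had 19.1, 10.9 and 17.3 CPM with syringin, against 28.2, 27.8 and 24.5 CPM with PBS, and missed the threshold (-0.77 ± 0.20, edgeR adjusted p = 0.0708).

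The Kv4 (Shal) genes encode the A-type channels of dendrites, and KChIP proteins are their calcium-binding partners. Of 3 Kv4 genes, Kcnd2 fell: it had 17.3, 16.8 and 16.7 CPM in the syringin libraries, against 31.0, 31.9 and 38.3 CPM in the PBS libraries (-1.0 ± 0.11, edgeR adjusted p = 0.0114). The syringin values lay close together and all below PBS. Kcnd1 (-0.32 ± 0.22) and Kcnd3 (-0.16 ± 0.30) did not pass, and their groups overlapped. None of the 4 KChIP genes passed. Kcnip3, also known as the transcriptional repressor DREAM, had 50.6, 45.2 and 62.3 CPM with syringin, against 67.0, 57.8 and 63.3 CPM with PBS (-0.25 ± 0.13, edgeR adjusted p = 0.294). Kcnip1 had 18.4, 9.85 and 15.8 CPM with syringin, against 28.8, 20.4 and 25.3 CPM with PBS, without overlap (-0.76 ± 0.23, edgeR adjusted p = 0.105). Kcnip4 and Kcnip2 had fold changes of -0.75 ± 0.39 and -0.37 ± 0.42.

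The Kv2 (Shab) genes encode the delayed rectifiers of neuronal cell bodies. Of these, Kcnb2 had a fold change of -0.41 ± 0.45, with overlapping groups. Electrically silent subunits form no channel of their own and modify Kv2 channels. Of 8 tested, 3 fell, and all 8 fold changes were negative. Fold changes were also negative in 42 of all 50 channel genes tested, and in 10864 of all 22114 genes. Kcng4 (GRCm38 chromosome 8, 119623854 to 119635680) had 8.53, 16.9 and 14.9 CPM in the syringin libraries, against 49.3, 28.6 and 58.7 CPM in the PBS libraries (-1.76 ± 0.32, edgeR adjusted p = 0.0272). Its standard error was the largest of the fallen genes, but the groups did not overlap. The silent genes that did not pass ranged from -0.75 ± 0.69 (Kcnv1) to -0.14 ± 0.26 (Kcnf1).

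Kcns3 had 5.92, 4.12 and 5.25 CPM with syringin, against 8.73, 9.39 and 8.59 CPM with PBS (-0.80 ± 0.18, edgeR adjusted p = 0.0463). Kcng1 was the scarcest of the fallen genes, with 66, 39 and 69 counts in the syringin libraries, against 179, 128 and 131 counts in the PBS libraries (-1.34 ± 0.29, edgeR adjusted p = 0.0424). Kcng1 was called in none of the fits that left out 1 library, where its adjusted p was 0.0566 to 0.171. Kcng3, the 1 gene too low to be tested, had 38, 0 and 4 counts with syringin, against 13, 9 and 8 counts with PBS.

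The KCNQ (Kv7) genes encode the slow M-current and its relatives. Kcnq3, a subunit of neuronal M-channels, had 44.7, 39.7 and 42.9 CPM with syringin, against 59.5, 63.5 and 59.8 CPM with PBS (-0.52 ± 0.09, edgeR adjusted p = 0.0226). Kcnq3 had the smallest of the called changes together with tight replicates. Kcnq5 (-0.61 ± 0.26) and Kcnq1 (0.39 ± 0.26), a subunit better known from heart and epithelia, did not pass. The sources used here do not say whether the counting used strand, so reads of Kcnq1 and of Kcnq1ot1, a non-coding RNA transcribed against it, may not be separable; Kcnq1ot1 had 12.7, 11.8 and 12.9 CPM with syringin, against 14.4, 18.9 and 17.6 CPM with PBS (-0.44 ± 0.14, edgeR adjusted p = 0.106).

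Of the 8 EAG, ERG and ELK genes 1 fell. Kcnh2, which encodes the ERG1 channel, had 29.9, 24.1 and 31.4 CPM in the syringin libraries, against 55.7, 53.6 and 56.3 CPM in the PBS libraries (-0.96 ± 0.11, edgeR adjusted p = 0.0114). The PBS values were nearly equal and lay above all syringin values. The other members ranged from -0.74 ± 0.34 (Kcnh5) to 0.32 ± 0.34 (Kcnh4).

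Beta subunits bind Kv1 channels inside the cell and carry them to the axon, and 2 of 3 fell. Kcnab3 had 16.5, 13.0 and 19.4 CPM in the syringin libraries, against 42.2, 34.7 and 43.5 CPM in the PBS libraries (-1.30 ± 0.16, edgeR adjusted p = 0.0126). Kcnab2, the most abundant of the 51 genes per length, had 138, 113 and 122 CPM with syringin, against 259.6, 179 and 239 CPM with PBS (-0.86 ± 0.15, edgeR adjusted p = 0.0242). Kcnab1 had 41.6, 24.1 and 29.5 CPM with syringin, against 70.6, 46.9 and 57.7 CPM with PBS, and missed the threshold without overlap (-0.88 ± 0.22, edgeR adjusted p = 0.0621). Exons of Kcnab3 overlap the antisense RNA Kcnab3os, which had 39, 19 and 34 counts with syringin and 64, 23 and 58 counts with PBS, and exons of Kcnab2 overlap Gm16334 on the same strand.

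The 4 KCNE genes did not pass. Kcne5 had 5.09, 17.7 and 20.1 CPM with syringin, against 7.97, 15.4 and 19.9 CPM with PBS (-0.01 ± 0.52), so that 1 library of each group stood low. Kcne3 had 50, 33 and 49 counts with syringin, against 21, 7 and 47 counts with PBS (0.79 ± 0.63).

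**Figure D3:**
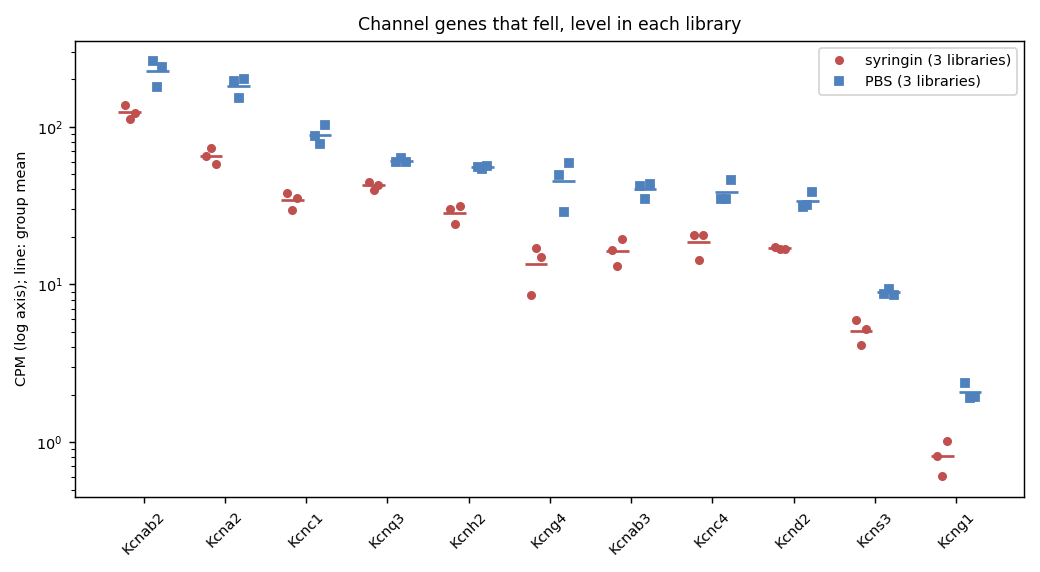
CPM on a log axis of 11 of the genes that fell, syringin libraries (circles) left of PBS libraries (squares), with the group mean as a line. In each gene the 3 syringin values lie below the 3 PBS values, from Kcnab2 with means of 124 and 226 CPM to Kcng1 with 0.813 and 2.06 CPM.

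Proteins that bind, anchor or traffic these channels were read from a list of 18 genes, of which 8 fell and none rose (median -0.56). Among all genes tested, 3.39% were called lower and 1.62% higher. Dpp6 and Dpp10, the Kv4 auxiliary genes on this list, both fell. The 4 KChIP genes, which are not on it, did not pass, with fold changes from -0.76 to -0.25. Whether the Dpp and KChIP genes differed was not tested. Dpp6 fell by 0.88 ± 0.13 on the log2 scale (edgeR adjusted p = 0.0189) and Dpp10 by 1.0 ± 0.19 (edgeR adjusted p = 0.0307). The fallen genes also included the scaffolds Dlg2 (-0.84 ± 0.13) and Dlg4 (-0.64 ± 0.11), the Kv1-associated secreted protein Lgi1 (-0.80 ± 0.16) and its receptor Adam23 (-0.76 ± 0.13). Epb41l3, the membrane skeleton protein of the paranode and juxtaparanode, fell by 0.56 ± 0.12 and the ankyrin gene Ank2 by 0.52 ± 0.11. Cntnap2, the juxtaparanodal Caspr2, had -0.94 ± 0.24 and missed the threshold (edgeR adjusted p = 0.0655). Its partner Cntn2, which oligodendrocytes also make, had 214, 220.2 and 265 CPM with syringin, against 218, 233 and 247 CPM with PBS (0.00 ± 0.11).

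Markers of other cells moved in the same libraries, where 3.39% of all genes tested were called lower and 1.62% higher. Of 18 neuron markers 9 fell and none rose (median -0.76), with a summed level of 2802 to 4169 CPM in the syringin libraries and 5030 to 6376 CPM in the PBS libraries. Of 8 markers of spinal inhibitory neurons 3 fell, the summed level being 315 to 391 CPM with syringin and 659.5 to 763 CPM with PBS. Of 9 motor neuron markers 4 fell, at 149 to 300.1 CPM with syringin and 297 to 412 CPM with PBS. Much of that sum came from Ret (means of 102 CPM with syringin and 127 CPM with PBS) and Prph (54.8 and 67.1 CPM), neither called. None of these 3 lists had a gene at 0 in any library. Of 8 Schwann cell markers 1 fell, at 541 to 779 CPM with syringin and 815 to 2311 CPM with PBS. Of 14 markers of infiltrating monocytes and macrophages 6 rose, at 4419 to 10970 CPM with syringin and 3164 to 4163 CPM with PBS. Of 12 astrocyte markers 7 fell, at 5580 to 7586 CPM with syringin and 8644 to 10140 CPM with PBS, and of 12 oligodendrocyte markers none was called (median 0.07). The part of the astrocyte, Schwann cell and macrophage markers in the channel results was not tested.

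The channel genes were set against the neuron markers by scaling each library to their geometric mean in place of the trimmed mean over all genes. This moved the median log2 fold change of all 22114 genes to 0.68 and that of the channel genes to 0.08. With TMM scaling the neuron markers ranged from -1.28 to 0.20. The median was -1.29 over the motor neuron markers and -0.89 over those of spinal inhibitory neurons. Whether a gene lower on the neuron marker scale fell further than the markers of any single neuron type was not tested. On this scale 4 channel genes of 50 were still lower in the syringin libraries, among them Kcna2 (-0.77, edgeR adjusted p = 0.029), Kcnc1 (-0.73, edgeR adjusted p = 0.0234) and Kcnab3 (-0.65, edgeR adjusted p = 0.0417), while 0.357% of all genes were called lower. Kcng4 had a value of -1.0 and just missed (edgeR adjusted p = 0.0502). The other fallen genes named here also missed, from -0.70 for Kcng1 to 0.14 for Kcnq3. Kcna6 (0.79, edgeR adjusted p = 0.032) and Kcnq1 (1.0, edgeR adjusted p = 0.025) were called higher on this scale, as were 37.6% of all genes. The value of Kcna6 exceeded the shift of all genes by little, and that of Kcnq1 rests on 2.76 to 4.39 CPM with syringin and 2.18 to 3.30 CPM with PBS.

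**Figure D4:**
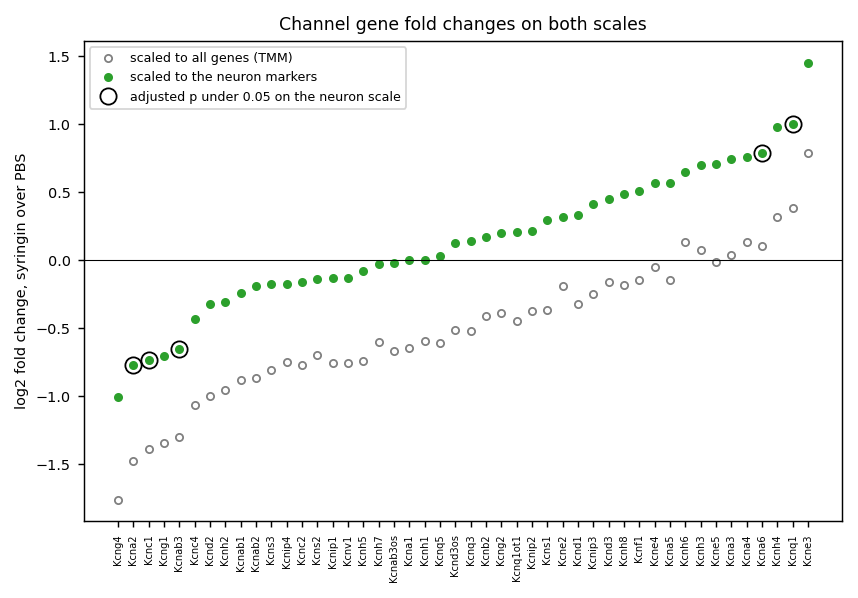
Log2 fold change of syringin over PBS of 46 channel genes, scaled to all genes (open points) and to the neuron markers (filled points), ordered by the second. Rings mark an adjusted p under 0.05 on the neuron scale: Kcna2, Kcnc1 and Kcnab3 lie below 0, and Kcna6 and Kcnq1 above.

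Some channel genes that did not pass varied between libraries alongside transcripts of sensory ganglion neurons, and 3 chosen after their values were seen are given here. The mean log2 level of 12 ganglion markers, centred on the average of the 6 libraries, stood at 2.70, -2.91 and 1.5 in syringin libraries 1 to 3, and at 2.83, -1.98 and -2.14 in PBS libraries 1 to 3. Of these markers 1 fell, Nefh, which other neurons also express, and Mrgprd, Prdm12, Scn10a and Scn11a were at 0 in at least 1 library. Kcnip2 had 9.47, 3.04 and 6.78 CPM with syringin, against 12.0, 6.94 and 6.02 CPM with PBS, so that the highest library of each group was the one richest in ganglion markers. Kcnb2 was also highest in library 1 of each group, with 8.41, 2.36 and 5.44 CPM with syringin, against 10.4, 5.19 and 6.02 CPM with PBS. Kcnh6 had 4.04, 0.345 and 1.65 CPM with syringin, against 2.67, 1.31 and 1.52 CPM with PBS, and it too was highest in library 1 of each group. None of the 3 passed with the ganglion mean as a covariate (edgeR adjusted p = 0.0555 for Kcnip2, 0.0647 for Kcnb2 and 0.433 for Kcnh6). In that fit 19 channel genes were lower and none higher, against 6.53% and 5.24% of all genes. They were the 13 lower genes and 6 more, among them Kcnab1, Kcnc2, Kcnip1, Kcnip4 (-1.05, edgeR adjusted p = 0.0149) and Kcnh7 (-0.93, edgeR adjusted p = 0.0347). Without the 3 libraries that held ganglion transcripts, a choice made after their values were seen, 26 channel genes were lower and none higher, against 8.8% and 7.5% of all genes, with a median of -1.01. That fit had 1 syringin library, assumed to vary like the PBS libraries, so its spread came from PBS libraries 2 and 3 only. The chi-square statistic per degree of freedom was 31.3 for that pair, the lowest of the replicate pairs. Between syringin libraries it was 106.2 to 147.4. Each syringin pair includes a library with ganglion transcripts, so these values cannot check the assumption, which stays untested. The counts of called genes in that fit may therefore be too high. The 13 genes had fold changes from -1.64 (Kcng1) to -0.64 (Kcnq3) there.

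**Figure D5:**
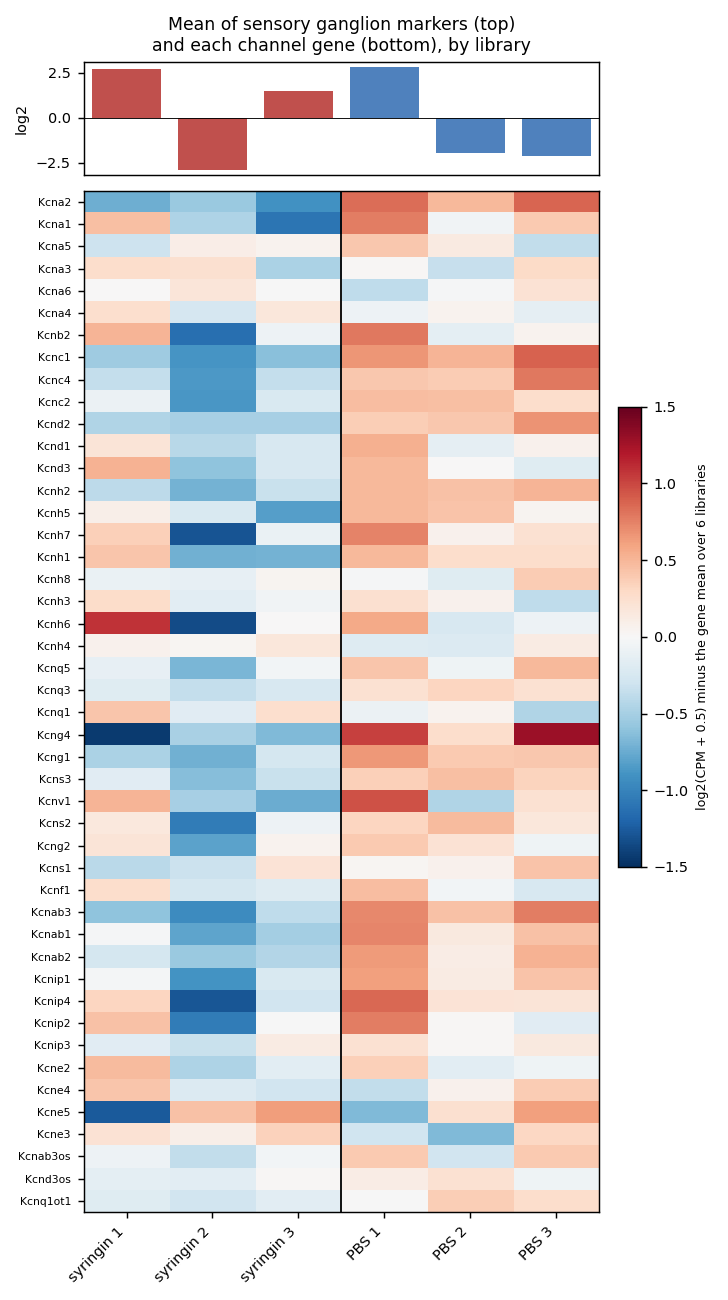
Mean of the sensory ganglion markers (bars, log2 relative to the 6 libraries) above the log2(CPM + 0.5) of 46 channel genes, each minus its mean over the libraries (colour), syringin libraries left of PBS libraries. Kcna2, Kcnc1 and Kcnd2 are below their mean in all syringin libraries and above it in all PBS libraries, while Kcnip2, Kcnb2 and Kcnh6 are highest in library 1 of each group.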

How the data were processed

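Spinal cord RNA of 6 contused mice was sequenced after TRIzol extraction and TruSeq stranded library preparation, per the labels' protocols. The submitters' processing notes name GRCm38, mm10, HISAT2 and StringTie. The authors deposited estimated counts per gene, whole numbers that rounding left as they were, and FPKM values scaled by transcript length and library size. The members and gene lists were chosen with earlier results of these data known.

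Titles gave the groups. Counts were filtered with filterByExpr (minimum count 10, minimum total 15), TMM-scaled (factors 0.9655 to 1.0292) and fitted with edgeR 4.0.16 (robust quasi-likelihood, R 4.3.3), with treatment as the term, over 22114 genes. A gene was called at a two-sided Benjamini-Hochberg adjusted p under 0.05. Standard errors were derived from the fold change and its F statistic. The common biological coefficient of variation was 24.9%. CPM use TMM-scaled library sizes. The code was tested on simulated data. Replicates were distinct: the chi-square statistic per degree of freedom between replicate libraries was 31.3 to 147.4.

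Values in every library are given for the called members shown, and for the highest in FPKM and the largest fold change of each subfamily; others shown were chosen after their values were seen. Some genes are not reported here. Alternatives used DESeq2 1.42.0, limma 3.58.1 and mgcv 1.9.3. Of 34804 gene IDs shared with GENCODE M21 (GRCm38), 717 had the deposited start, so gene coordinates are GENCODE's, matched by gene ID. Python 3.11.15 with pandas 2.3.3 and matplotlib 3.10.9 made tables and figures.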

Additional observations from a re-analysis of the deposited data

How the results depend on the processing

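The count of 13 lower channel genes was 12 or 13 with other scaling factors, other filters on low counts, counts divided by 4 and limma-voom. The same held for edgeR without robust estimation and for a correction for transcript length and GC content. Over all genes, the share called lower in these fits ran from 2.2% (no filter) to 5.34% (mean CPM of 1 or more). The count was 10 with limma on log2(FPKM + 0.1) (2.4% of all genes) and 11 on log2(FPKM + 1) (2.6%). DESeq2 called 18 (8.98% of all genes were lower), and 2799 genes in all against 1108. Leaving out each library in turn gave 0 to 17 lower channel genes and 0 to 1944 genes in all, the 0 without PBS library 3; the cause was not tested. Without PBS library 3, DESeq2 called 1346 genes and limma-voom 0. The median of -0.56 was -0.25 with log2(FPKM + 1), a pseudocount that shrinks the change of low genes, and ranged from -0.89 to -0.39 when 1 library was left out. Because the groups do not overlap in the 13 genes, their shared sign in these fits is no sign of stability.

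Whether the replicate numbers pair the samples was not settled. Deviations of same-numbered libraries correlated at 0.292, 0.123 and 0.0522, all positive, while syringin library 2 correlated slightly better with PBS library 3 (0.135). With the replicate number as a block, 17 channel genes were lower (6.76% of all genes) and 2557 genes were called in all. The fit without the 3 libraries with ganglion transcripts had 1 syringin library, so its counts of called genes may be too high. The ganglion covariate gave 2602 genes in all, and leaving out the 3 libraries with ganglion transcripts gave 3820, with 26 channel genes lower and a median of -1.01. On the neuron marker scale 8386 genes were called, 99.1% of them higher against 32.4% with TMM scaling; 4 channel genes were lower and 2 higher, the median was 0.08, and Kcnq3 changed sign to 0.14 (edgeR adjusted p = 0.652), which follows from the shift of all genes by that scale. With 3 libraries a group, and perhaps 4 counts to a fragment, the scarce genes Kcng3, Kcne2, Kcne3 and Kcnd3os carry wide errors.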
